A study of Arabidopsis thaliana with 15 samples.

Results

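The cellulose synthase A genes of Arabidopsis thaliana, CESA1 to CESA10, encode the catalytic subunits that build cellulose at the plasma membrane. All 10 were taken by their locus identifiers, of 27444 nuclear protein-coding genes, and were divided into 7 genes of primary walls (CESA1, CESA2, CESA3, CESA5, CESA6, CESA9 and CESA10) and 3 of secondary walls (CESA4, CESA7 and CESA8). Peaks of H3K4me2, H3K4me3 and H3K36me3 were read over their gene bodies. The gene table gives CESA3 as CEV1, CESA7 as IRX3 and CESA8 as IRX1 and lists the CESA names as synonyms.

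Cellulose is made by complexes that combine different CESA proteins. In growing cells CESA1 and CESA3 work with CESA6 or one of its close relatives CESA2, CESA5 and CESA9, and together they lay down the thin primary wall. In xylem and fibre cells CESA4, CESA7 and CESA8 form a separate complex that thickens the secondary wall, and loss of any of them gives the collapsed vessels called irregular xylem. CESA9 is known for its part in the seed coat, and CESA10 is a close relative of CESA1. H3K4me3 usually marks the start of transcribed plant genes, H3K36me3 their bodies, and H3K4me2 is found on active and on many inactive genes.

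The data came from native ChIP-seq, in which nuclei are cut with micrococcal nuclease without crosslinking, on whole Col-0 seedlings grown for 8 days. There were 15 libraries in the series, 1 for each of input chromatin, total histone H3 and the 3 methylation marks in the fpa single mutant (allele fpa-7), in the bdrs triple mutant and in wild-type plants. What was analysed are 3 lists of peaks, 1 per mark, each from libraries of its mark pooled together and set against pooled H3. The lists do not say which genotypes were pooled, so no mutant could be compared with wild type, there is no replicate error, and the depth behind a peak is unknown. The comparisons below are between genes within a list, without a p-value. Fold enrichment is the ratio of the mark to pooled H3 that the authors' peak caller gave each peak, and it ranks peaks only within its own list. All 3 lists share the H3 control. In chromatin of whole seedlings, a mark present in few cells and a weak mark in all cells cannot be told apart.

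The 3 seedling markers LHCB3, LHCB2.1 and RBCS1A, genes of light harvesting and of Rubisco, all carried H3K4me3, as did 62.7% of all genes. H3K36me3, on 49.9% of all genes, was on LHCB3 and LHCB2.1 but not on RBCS1A. Of the 3 seed storage protein genes CRU1, CRU3 and AT2S3, 0 carried H3K4me3 or H3K36me3. Of the 3 genes set as markers of differentiating xylem, the proteases XCP1 and XCP2 and the regulator VND7, 0 carried H3K4me3 or H3K36me3. H3K4me2, on 75.0% of all genes, was on CRU1 and XCP2 alone among these markers. XCP1, XCP2 and VND7 are counted again in the secondary wall lists below.

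H3K4me3 and H3K36me3 lay on 5 primary wall genes, CESA1, CESA2, CESA3, CESA5 and CESA6, and on 1 of the 3 secondary wall genes, CESA4. CESA9 and CESA10, the other primary wall members, carried neither, and neither did CESA7 and CESA8. A gene carried a mark where listed peaks covered at least 200 bp of it. H3K4me3 was thus on 5 of 7 primary wall genes and 1 of 3 secondary wall genes, where 62.7% of all genes carried it. H3K36me3 was on the same genes, 5 of 7 and 1 of 3, where 49.9% of all genes carried it. H3K4me2 was on 5 of 7 primary wall genes and on 3 of 3 secondary wall genes, where 75.0% of all genes carried it. Long genes carry the marks more often. Among the 1970 genes between 4263 and 6355 bp, the length range of the CESA genes, 91.3% carried H3K4me2, 84.6% H3K4me3 and 73.0% H3K36me3, so the counts of the primary wall genes are not above those of genes of like length. No CESA gene was close to the limit of 200 bp, since the smallest cover above 0 was 633 bp.

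**Figure D1:**
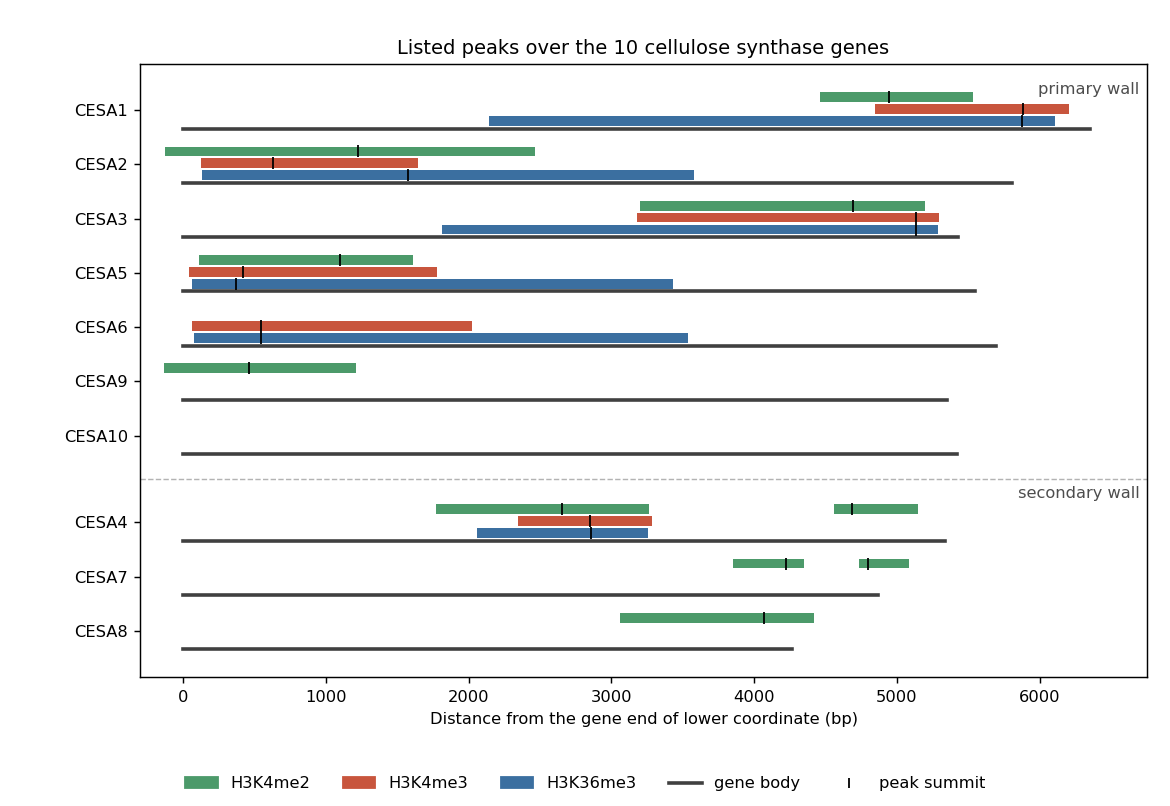
Listed peaks of H3K4me2, H3K4me3 and H3K36me3 (coloured bars) over the 10 cellulose synthase gene bodies (dark lines), by distance in bp from the gene end of lower coordinate, with primary wall genes above and secondary wall genes below the dashed line. Black ticks are peak summits. In CESA1, CESA2, CESA3, CESA5 and CESA6 the trimethyl marks start near 1 end of the gene. In CESA4 all 3 marks have a peak in its middle, and a weaker H3K4me2 peak lies near the end of higher coordinate.

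CESA1, CESA2, CESA3 and CESA5 had all 3 marks, the state of 46.6% of all genes and of 70.8% of genes of like length, and CESA6 had H3K4me3 and H3K36me3 without H3K4me2. On CESA1 (AT4G32410), whose loss makes roots swell radially, H3K4me3 lay on chromosome 4 between positions 15645335 and 15646694 (TAIR10), with a fold of 10.3, and H3K36me3 between 15642634 and 15646594, with a fold of 7.20. On CESA3 (AT5G05170), the other constant subunit of the primary wall complex, H3K4me3 lay on chromosome 5 between 1533312 and 1535424, with a fold of 10.4, and H3K36me3 between 1531944 and 1535419, with a fold of 6.81. These peaks stood in the upper part of their lists. The H3K4me3 folds were at the 79.1 and 81.2 percentiles of all H3K4me3 peaks, and the H3K36me3 folds at the 90.4 and 83.1 percentiles of all H3K36me3 peaks.

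CESA6 (AT5G64740), the subunit affected in procuste plants with short hypocotyls, had the highest folds of the family in both trimethyl marks. Its H3K4me3 peak lay on chromosome 5 between 25881096 and 25883052, with a fold of 11.1, the 89.9 percentile of the list. Its H3K36me3 peak lay between 25881111 and 25884568, with a fold of 8.27, the 98.7 percentile. It carried no listed H3K4me2 peak, and the nearest ones were 6474 bp below and 4665 bp above the gene. The peak numbers leave room for 1 called peak between those that was left out of the list. The combination of H3K4me3 and H3K36me3 without H3K4me2 was found on 2.65% of all genes and on 1.68% of genes of like length.

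CESA5 (AT5G09870) and CESA2 (AT4G39350), relatives of CESA6 that partly replace it, differed in rank. CESA5, which also serves seed mucilage, had H3K4me3 on chromosome 5 between 3072910 and 3074649, with a fold of 10.4 (81.0 percentile) and H3K36me3 between 3072931 and 3076300, with a fold of 7.66 (95.9 percentile). CESA2 had H3K4me3 on chromosome 4 between 18296512 and 18298034, with a fold of 8.05 (37.7 percentile) and H3K36me3 between 18296519 and 18299964, with a fold of 4.15 (14.7 percentile). CESA2 was therefore below the median peak of both lists, which had folds of 8.84 and 5.68, while CESA1, CESA3, CESA5 and CESA6 were above it in both. In order of H3K36me3 fold the carriers ran CESA6, CESA5, CESA1, CESA3, CESA4 and CESA2, and without replicates no 2 neighbours in that order can be separated.

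Of the 5 primary wall genes with trimethyl marks, CESA6 had no listed H3K4me2 peak and the other 4 had weak ones. The H3K4me2 folds were 2.21 for CESA1, 2.69 for CESA2, 2.50 for CESA3 and 2.34 for CESA5, at the 10.3, 27.5, 20.5 and 14.9 percentiles of the H3K4me2 list, whose median fold was 3.37. Among the 1391 genes of like length with all 3 marks and an H3K4me2 summit, the median fold was 3.48 and the lower quartile 2.80, so all of these 4 lay under the lower quartile. The cover was not small throughout, with 2467 bp on CESA2 and 2002 bp on CESA3 against 1495 bp on CESA5 and 1077 bp on CESA1. Carriers of like length had a median of 1290 bp.

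CESA9 (AT2G21770) and CESA10 (AT2G25540) stood apart from the other primary wall genes. CESA9 had 1 listed peak, H3K4me2 on chromosome 2 between 9284257 and 9285598, with a fold of 3.43 (51.7 percentile), which covered 1208 bp of the gene and ran 134 bp past its end. H3K4me2 alone was the state of 15.3% of all genes and of 8.58% of genes of like length. CESA10 had no listed peak of any mark. By the limit of 200 bp, 21.4% of all genes and 6.29% of genes of like length carried none of the marks. For H3K4me3 the listed peaks on either side of CESA9 carry consecutive numbers, as do those on either side of CESA10, which leaves no called H3K4me3 peak between them that was left out. For H3K36me3 the same held around CESA10, while around CESA9 2 called peaks were left out, as were 2 of H3K4me2. For H3K4me2, 7 called peaks were left out between the listed peaks around CESA10, so weak H3K4me2 there is possible.

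**Figure D2:**
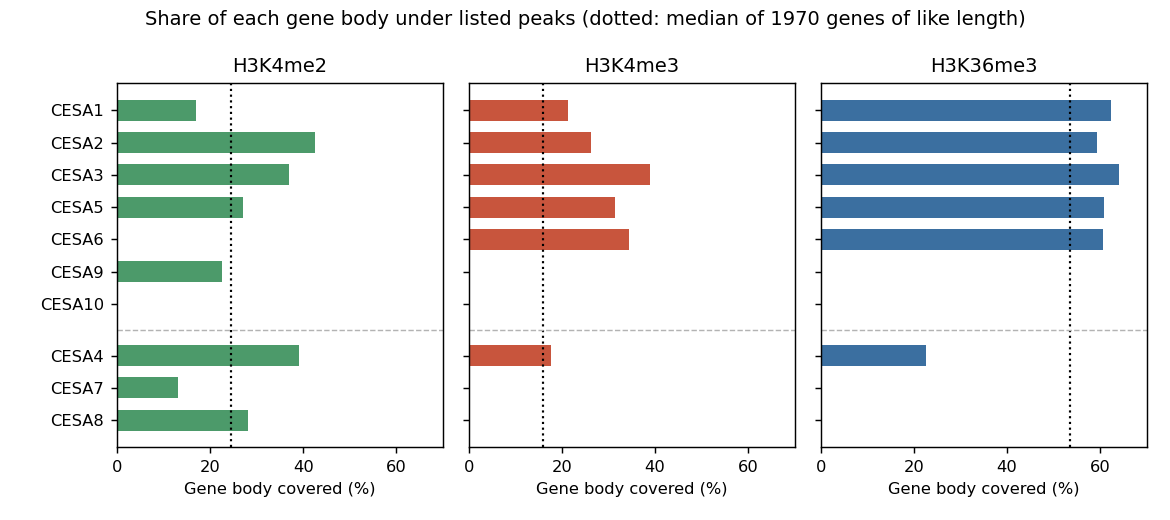
Share of each cellulose synthase gene body under listed peaks, in percent, 1 panel per mark, with primary wall genes above and secondary wall genes below the dashed line. Dotted lines are medians of the 1970 genes of like length, at 24.4% for H3K4me2, 16.0% for H3K4me3 and 53.6% for H3K36me3. They include genes without the mark. Carriers of like length had medians of 25.9%, 17.2% and 60.6%, and for H3K36me3 quartiles of 49.9% and 67.7%. H3K36me3 covered 59.4% to 64.1% of CESA1, CESA2, CESA3, CESA5 and CESA6 and 22.5% of CESA4.

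Of the secondary wall genes, CESA7 and CESA8 carried H3K4me2 alone. CESA7 (AT5G17420), the gene of the irregular xylem 3 mutant, had an H3K4me2 peak on chromosome 5 between 5740483 and 5740981, with a fold of 4.83 (80.5 percentile) and a weaker one between 5741367 and 5741716, with a fold of 2.48 that ran past the gene. Together they covered 633 bp, or 13.0% of the gene. CESA8 (AT4G18780), the gene of irregular xylem 1, had H3K4me2 on chromosome 4 between 10315683 and 10317040, with a fold of 2.84 (32.6 percentile). That peak covered 1204 bp of CESA8 and also 235 bp of AT4G06845, a long non-coding RNA gene that overlaps its end, so it cannot be assigned to CESA8 alone. The listed H3K4me3 peaks nearest to CESA7 were 5389 bp below and 8228 bp above it, and those nearest to CESA8 were 3117 bp below and 3858 bp above it. The numbers allow for 1 called H3K4me3 peak left out of the list in each of these intervals. Between the listed H3K36me3 peaks around CESA7, and around CESA8, they allow for 0.

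CESA4 (AT5G44030) differed from CESA7 and CESA8 in carrying all 3 marks, and from the primary wall genes in where they lay. Its H3K4me3 peak was on chromosome 5 between 17716733 and 17717675, with a fold of 7.86 (35.5 percentile), and its H3K36me3 peak between 17716445 and 17717643, with a fold of 5.19 (35.8 percentile). H3K4me2 lay between 17716164 and 17717656, with a fold of 4.47 (75.1 percentile) and, weaker, between 17718950 and 17719539, with a fold of 2.73. That weaker peak lay 4560 to 5149 bp from the end of lower coordinate, near the other end of the gene. The H3K4me3 summit was 2485 bp from the nearer end of a gene of 5334 bp, close to its middle. Of 1643 genes of like length with an H3K4me3 summit, 7 had it at least as far from both ends (0.426%), CESA4 among them. Among genes of all lengths with such a summit the share was 0.119%. Shorter genes, some of like length included, cannot reach this distance from both ends, so both shares depend on gene length. Position as a share of gene length was not computed. The median distance to the nearer end at like length was 306 bp. None of these CESA4 peaks touched another annotated gene. H3K4me3 peaks outside the gene were 189 bp below and 850 bp above it.

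**Figure D3:**
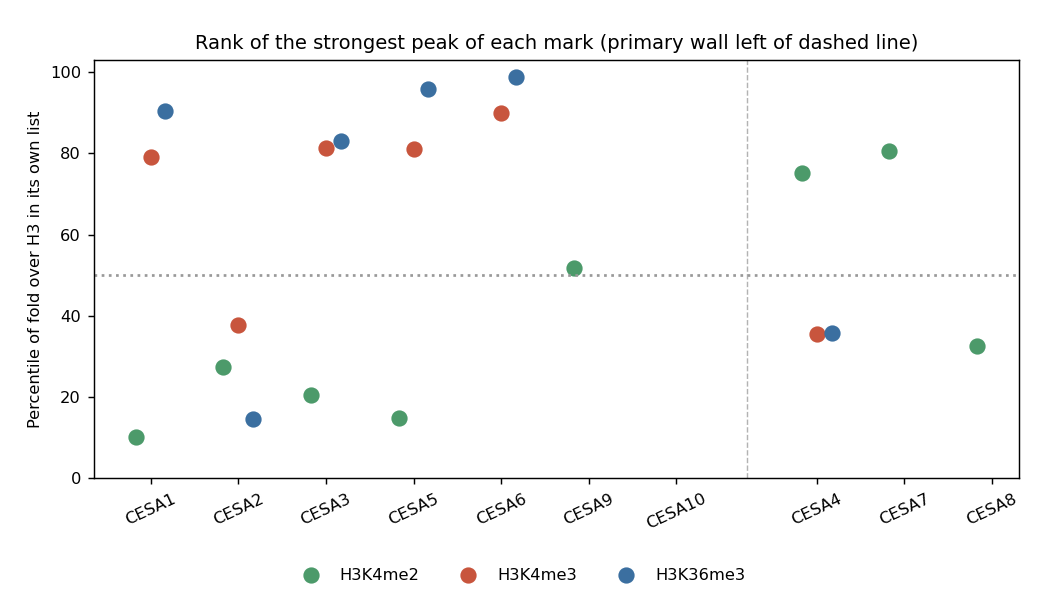
Percentile of the authors' fold over H3 within its own list, for the strongest peak of each mark with its summit in the gene, with primary wall genes left and secondary wall genes right of the dashed line. Genes without a point for a mark had no such peak. The H3K4me2 points lie below the trimethyl points in CESA1, CESA3 and CESA5 and above them in CESA4.

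The highest H3K4me2 folds of the family were on CESA7 and CESA4. The strongest H3K4me2 folds were 2.21 to 3.43 on the 5 primary wall carriers, CESA9 being the highest, and 4.47, 4.83 and 2.84 on CESA4, CESA7 and CESA8. The ranges overlapped through CESA8 and CESA9. Among 165 genes of like length with H3K4me2 alone, the median fold was 3.00 with quartiles of 2.36 and 4.49, and CESA9, CESA7 and CESA8 stood at the 62.4, 81.8 and 47.3 percentiles of these.

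Within each of the 5 primary wall carriers, both trimethyl marks reached inward from 1 end of the gene. This was the end of higher coordinate in CESA1 and CESA3 and that of lower coordinate in CESA2, CESA5 and CESA6. The table gives no strand, so distances are from the gene end nearer the H3K4me3 summit. The H3K4me3 peak began 150 bp inside that end in CESA1, 124 bp in CESA2, 134 bp in CESA3, 40 bp in CESA5 and 63 bp in CESA6. It stopped 1509 bp from the end in CESA1, 1646 bp in CESA2, 2246 bp in CESA3, 1779 bp in CESA5 and 2019 bp in CESA6. In 1643 genes of like length this inner edge had a median of 935 bp and an upper quartile of 1182 bp, so the H3K4me3 peaks of all 5 reached beyond the upper quartile. In covered length they stood at the 86.3 to 96.9 percentiles of the 1667 carriers of like length. CESA4, with 943 bp covered, stood at the 60.8 percentile. As a share of the gene body, carriers of like length had a median H3K4me3 cover of 17.2% and an upper quartile of 22.3%. CESA1, at 21.4%, was under that quartile, and CESA2, CESA3, CESA5 and CESA6, at 26.2% to 38.9%, were above it.

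H3K36me3 went further in each of these 5 genes. Its inner edge lay 4210 bp from the end in CESA1, 3576 bp in CESA2, 3614 bp in CESA3, 3430 bp in CESA5 and 3535 bp in CESA6, where 1397 genes of like length had a median of 3106 bp and quartiles of 2576 and 3655 bp. H3K36me3 outreached H3K4me3 by 1368 bp in CESA3 up to 2701 bp in CESA1. In CESA4 it did so by 288 bp from the chosen end. The choice of end is close there, at 2485 and 2848 bp from the H3K4me3 summit. The H3K36me3 cover of CESA4, 1199 bp, was at the 5.29 percentile of the 1438 carriers of like length. Those of the 5 primary wall genes were at the 69.8 to 88.0 percentiles in bp. As a share of the gene body these 5 had 59.4% to 64.1%. The carriers of like length had a median share of 60.6% and quartiles of 49.9% and 67.7%.

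**Figure D4:**
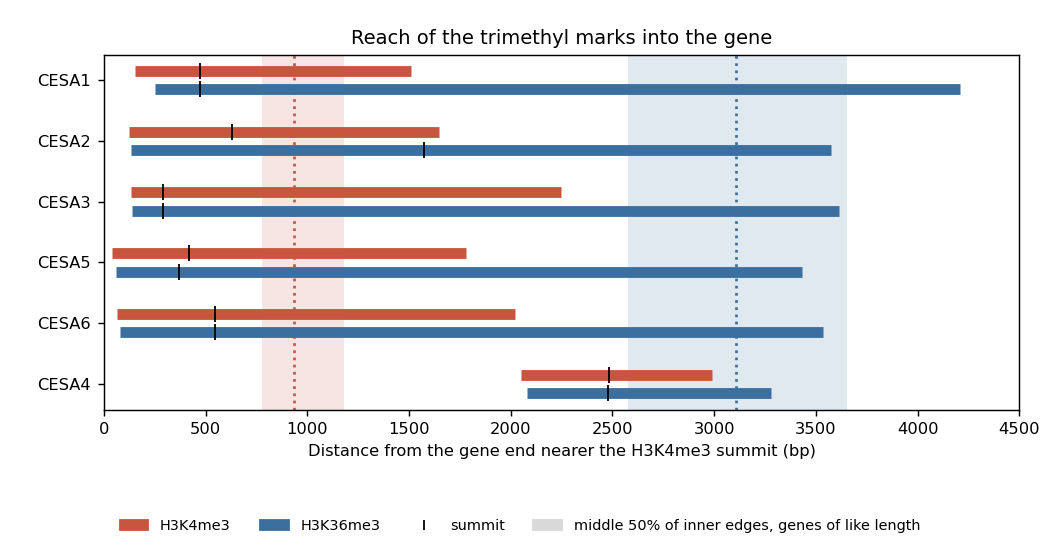
H3K4me3 and H3K36me3 peaks of the 6 cellulose synthase genes that carry them, by distance in bp from the gene end nearer the H3K4me3 summit, with the 5 primary wall genes above CESA4. Ticks are summits, shaded bands the middle 50% of inner peak edges in genes of like length and dotted lines their medians, 935 bp for H3K4me3 and 3106 bp for H3K36me3. The 5 primary wall genes pass the H3K4me3 band, and in CESA4 both marks begin 2048 and 2080 bp from the end.

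The summits of the trimethyl marks nearly coincided in 5 of the 6 carriers. The H3K36me3 summit was 2 bp further in than that of H3K4me3 in CESA1, 0 bp apart from it in CESA3 and 1 bp further in in CESA6. The offset was -45 bp in CESA5 and -9 bp in CESA4, where the H3K36me3 summit was nearer the end. CESA2 was the exception, with its H3K36me3 summit 948 bp further in. Summits within 50 bp of each other were found in 68.8% of all genes with both and in 68.2% of those of like length. H3K4me2 summits lay further in than H3K4me3 summits by 936 bp in CESA1, 598 bp in CESA2, 444 bp in CESA3 and 681 bp in CESA5. In CESA4 the H3K4me2 summit was 196 bp further from the chosen end. That end was 2485 bp from its H3K4me3 summit and the other 2848 bp, so directions within CESA4 depend on the choice of end. An H3K4me2 summit further in than that of H3K4me3 was found in 81.3% of all genes with both and in 83.4% of those of like length. At like length the median offset was 309 bp and the upper quartile 439 bp. The offsets of CESA1, CESA2, CESA3 and CESA5 were above that quartile.

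Genes known to work with the CESA proteins of primary walls carried the trimethyl marks, and genes of secondary walls mostly did not. These lists were chosen with earlier results of these data known. Of 10 partners of primary wall synthesis, 10 carried H3K4me3, 9 H3K36me3 and 8 H3K4me2, against 62.7%, 49.9% and 75.0% of all genes. They include the endoglucanase KOR1, with H3K4me3 and H3K36me3 folds of 10.5 and 7.51, and CSI1, which links the complex to microtubules, with 11.7 and 7.21. The anchored wall protein COB had folds of 10.4 and 7.80. CSI3 had 7.78 and 4.12, below the list medians of 8.84 and 5.68. KOR1 and the chitinase-like CTL1 carried both trimethyl marks without H3K4me2, as CESA6 did. The exception for H3K36me3 was AT5G42860, with an H3K4me3 fold of 3.10. KOR1 has IRX2 among its synonyms and is known in secondary walls too.

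Of 13 secondary wall partners and enzymes, 11 carried H3K4me2 (84.6%), 3 H3K4me3 (23.1%) and 2 H3K36me3 (15.4%), where all genes stood at 75.0%, 62.7% and 49.9%. The share with H3K4me2 is near that of all genes. H3K4me2 alone was the state of 8, where 15.3% of all genes had it, as on CESA7 and CESA8, among them COBL4, a relative of COB needed in xylem, with a fold of 5.90, the chitinase-like CTL2 with 4.32, TED6, which binds the secondary wall complex, with 4.21, and IRX8, of xylan synthesis, with 4.67. The xylan genes IRX10 and IRX14 carried all 3 marks, at H3K4me3 folds of 9.84 and 11.9, and FRA8 carried H3K4me2 with H3K4me3 at folds of 3.75 and 4.22. The laccase gene LAC17 and the xylem protease gene XCP1 carried none. Of 10 transcription factors that switch on secondary wall synthesis, 0 carried H3K4me3 or H3K36me3 and 5 carried H3K4me2, where 62.7%, 49.9% and 75.0% of all genes carried these marks. NST1, NST2, SND1 and MYB63 had H3K4me2 folds of 4.70, 3.57, 2.14 and 3.86. MYB58 was covered by H3K4me2 over 598 bp with no summit inside, and by H3K4me3 and H3K36me3 over 104 and 189 bp, under the 200 bp limit. VND6, VND7, MYB46, MYB83 and MYB103 carried none. The lists differ in gene length, with medians of 3103.5 bp for the primary wall partners and 2139 bp for the secondary wall partners and enzymes. The factor genes are shorter than the CESA genes, with a median of 1914.5 bp. Genes in the CESA length range carry the marks more often than genes of all lengths, and the lists were not matched for length.

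**Figure D5:**
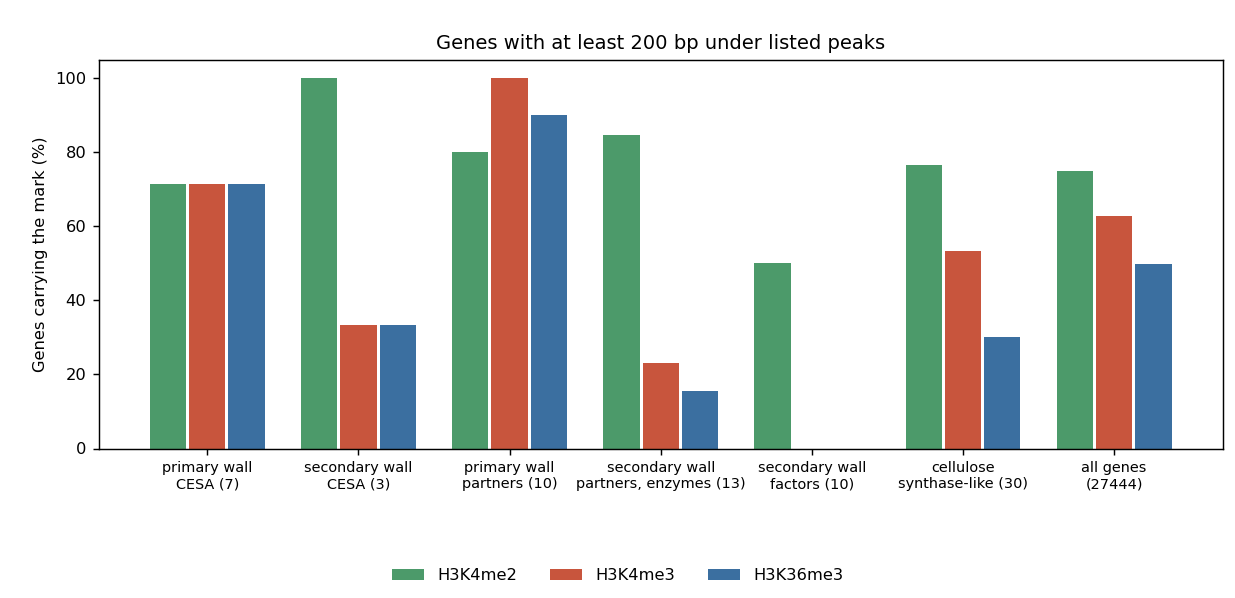
Share of genes with at least 200 bp under listed peaks, in percent, for the primary wall and secondary wall CESA genes, the lists of wall genes, the cellulose synthase-like genes and all nuclear protein-coding genes, with the number of genes in brackets. H3K4me3 was on 10 of 10 primary wall partners, 3 of 13 secondary wall partners and enzymes and 0 of 10 secondary wall transcription factors.

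By the shares of the gene body under the 3 marks, the genes with a symbol most like CESA1 were DEX1, VPS34 and RCD1, at distances of 2.70, 2.79 and 3.25 percentage points among 877 genes within 25% of its length. Those most like CESA4 were RDR1, CIP4.1 and KNAT6, at 3.51, 4.24 and 4.98 percentage points among 1407 genes. The likeness rests on 3 values per gene from 3 pooled lists and does not use where in the gene the peaks lie.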

How the data were processed

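The submitters' processing notes name MACS2, Bowtie2 2.2.6, SAMtools 1.3, Trimmomatic 0.33, Picard 2.2.4, R 3.3.2 and the TAIR10 build, without roles or settings. How reads matching more than 1 of these related genes were placed is not stated. The peak names in the deposited lists say pooled mark against pooled H3. Each deposited fold is a ratio of mark to H3 made by the peak caller, which also gave the deposited −log10 p. The deposited score was not used. The lists hold 62.8%, 76.3% and 62.8% of the numbered H3K4me2, H3K4me3 and H3K36me3 peaks.

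Peaks were set on gene bodies of the RefSeq table for TAIR10.1, whose coordinates are not printed. Of the peak bases, 93.5%, 96.2% and 98.3% fell in genes, and fewer did at each offset tried up to 1000 bp. Overlap used Python 3.11.15, numpy 2.4.6 and pandas 2.3.3. Genes shorter than 400 bp needed 50% cover. The cover and summit steps were tested on simulated data with planted peaks. Names of gene lists were looked up in the table, and 4 partners without a name there go by identifier or are counted only. All CESA genes are named, and of the lists the genes outside the majority state or the first 4 of a state. The cellulose synthase-like genes in the closing section were named after their values were seen. The members and lists were chosen with earlier results of these data known. For 1 input library of bdrs plants the source name says 7 days.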

Additional observations from a re-analysis of the deposited data

How the results depend on the processing

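The counts of CESA genes carrying a mark were recomputed with other rules, giving 39 alternative values, of which 29 were within 1.5 times the count above and 10 were not. H3K36me3 on 5 primary wall genes held under every rule tried except the strongest 50% of peaks by −log10 p. There CESA2 dropped out and 4 were left. Some of the rules could not lower this count. The same number of peaks from each list keeps the whole H3K36me3 list, and a cover of at least 1 bp can only add genes. Leaving out CESA9 and CESA10 removes no carrier of H3K36me3. With at least 50% of the gene body covered, H3K4me2 was on 0 of 7 primary wall and 0 of 3 secondary wall genes, H3K4me3 on 0 and 0, and H3K36me3 on 5 and 0, where 8.27%, 1.68% and 54.7% of genes of like length passed. Among the strongest 50% of peaks by −log10 p, 0 primary wall genes carried H3K4me2, which stayed on 2 secondary wall genes, CESA4 and CESA7. The H3K4me2 peak of CESA9 stands at the 47.7 percentile by −log10 p (51.7 by fold). H3K4me3 was left on 4 primary wall genes, as CESA2 dropped out. As CESA4 dropped out, 0 secondary wall genes carried H3K4me3 or H3K36me3. Of genes of like length 51.4%, 47.3% and 40.4% passed for H3K4me2, H3K4me3 and H3K36me3. With the same number of peaks from each list, again by −log10 p, H3K4me2 was on 1 primary wall gene, CESA9, and on 2 secondary wall genes, CESA4 and CESA7 (58.8% of genes of like length). With only peaks wholly within the gene, a rule added after seeing the data, H3K4me2 was on 3 primary wall genes, CESA1, CESA3 and CESA5, and on 2 secondary wall genes (83.2% of genes of like length). These rules drop peaks or raise the cover by construction. Without CESA9 and CESA10, 4 of 5 primary wall genes carried H3K4me2 and 5 of 5 each trimethyl mark. Of genes of like length 91.3%, 84.6% and 73.0% carried H3K4me2, H3K4me3 and H3K36me3. CESA9 and CESA10 carry neither trimethyl mark, so the 5 of 5 was fixed by leaving them out. No paired analysis was possible because each mark had 1 pooled list. Read depth is unknown, and genes with no peak in a list may still bear a weak mark.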

Other observations

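The cellulose synthase-like genes, relatives of the CESA genes that make other wall polysaccharides, were divided by subfamily. Of 30 genes with such a symbol, 23 carried H3K4me2, 16 H3K4me3 and 9 H3K36me3, or 76.7%, 53.3% and 30.0%, where all genes stood at 75.0%, 62.7% and 49.9%. All 3 marks were on 8, H3K4me2 with H3K4me3 on 7, H3K4me2 alone on 8, both trimethyl marks without H3K4me2 on 1, CSLB03, and no mark on 6. In the same order, these states were found on 46.6%, 12.9%, 15.3%, 2.65% and 21.4% of all genes. The CSLC genes, of xyloglucan synthesis, carried H3K4me2 and H3K4me3 on 5 of 5 and H3K36me3 on 4, with CSLC12 the exception. The CSLD genes, the subfamily nearest to CESA, carried H3K4me2 on 6 of 6 and the trimethyl marks on 2. Those were CSLD2 and CSLD3, which act in root hairs, at H3K4me3 folds of 7.32 and 9.46. CSLD1 and CSLD4, known from pollen tubes, and CSLD5 and CSLD6 carried H3K4me2 alone, at folds of 4.92, 3.49, 5.33 and 11.4. Of 9 CSLA genes, of mannan synthesis, 5 carried H3K4me3 and 1, CSLA07, H3K36me3. CSLB genes lie partly in tandem and can share reads, so the peaks of CSLB03 and CSLB04 are uncertain.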
